A study of Arabidopsis thaliana with 9 samples.

Results

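A pair of cytokinins, given at the same dose for the same time, was compared gene by gene in detached, senescing Arabidopsis leaves. The comparison sets the 3 arrays of leaves treated with compound 6 against the 3 arrays of leaves treated with compound 3, which are 6 of the 9 arrays of the study. The 3 arrays of DMSO control leaves serve as a reference level, and they also enter the estimate of spread behind each test. Arrays were chosen by their labels, and all 16722 transcript clusters paired with exactly 1 gene were tested, out of 38408 on the array (each transcript cluster is a group of probes read together). All leaves came from Col-0, the standard laboratory accession, grown in soil to an age of 21 days. A sample was 10 to 15 cut leaves kept in MS medium, a mineral plant medium, for 48 h in the dark. The medium held 10 µM of compound 6, 10 µM of compound 3, or 0.05% DMSO, the solvent, in the controls. The labels call both substances cytokinins and give them only by code, so nothing on their structures is stated here. The labels name 3 biological replicates per group, and they number the compound 6 samples as one unbroken run and the compound 3 samples as the next. Sample order and compound cannot be told apart.

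Cytokinins are adenine-derived hormones known for delaying leaf senescence. They are sensed by membrane histidine kinases that pass phosphate through carrier proteins to the type-B response regulators, which are transcription factors. Among the genes these factors switch on are the type-A response regulators, which dampen the signal in turn, and genes of chloroplast function and cell wall growth are also known to respond.

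Values are log2 RMA expression values (RMA subtracts background, equalises the arrays and summarises probes). The arrays of the compounds resembled each other closely. Pearson's r over the tested transcript clusters, given as a description, was 0.984 to 0.985 within compound 6, 0.982 to 0.986 within compound 3, 0.976 to 0.984 between the compounds and 0.955 to 0.974 between a compound and control. Array medians over these clusters lay between 3.69 and 3.81. Compound 6 replicate 2 stood apart over a stretch of 7083 transcript clusters without a gene name, with a median there of 3.40 against 2.54 to 2.84 on the other 5 compound arrays. Counts without this array are given below. Calls were fewer without any single compound array, so these counts cannot single out the part of this one. The labelled tissue was checked against marker genes. The mean of 6 mesophyll genes was 8.42 to 8.56 with compound 6 and 8.32 to 8.49 with compound 3, while PYK10, a beta-glucosidase abundant in roots, stood at 3.25 to 3.70 and 3.25 to 3.46. The guard cell regulator FMA (FAMA) stood at 5.84 to 6.16 with compound 6 and at 4.91 to 5.79 with compound 3, AT4G13840, the 1 epidermis and cuticle marker measured, at 4.48 to 4.62 and 3.91 to 4.40, and the mean of 3 phloem genes at 6.91 to 7.33 and 6.58 to 7.05. Their part in the differences below was not tested.

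Few genes passed the adjusted threshold between the compounds. In limma, 50 transcript clusters of 50 genes passed a Benjamini-Hochberg adjusted p under 0.05, which is 0.299% of those tested. Of these, 36 were higher with compound 6 (0.215% of those tested) and 14 were lower with compound 6 (0.0837%). In all 50 the 3 arrays of one compound lay on the same side of the 3 arrays of the other, as they did for 2671 transcript clusters in all (16%). The differences that passed ran from 1.00 to 2.34 on the log2 scale in size, and 7 of the 50 genes carry a symbol other than their locus identifier. The labelled groups are whole leaves, in which fewer cells of a type and less RNA per cell cannot be told apart. The number of calls depends on the fit. It was 22 without compound 6 replicate 2 and 20 to 29 without any single compound array. Without DMSO control replicate 3 it was 112. When all 38408 transcript clusters were tested it was 3, namely AT4G15680 and 2 unnamed clusters. With arrays centred by the median of all their transcript clusters the split was 27 higher and 19 lower.

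**Figure D1:**
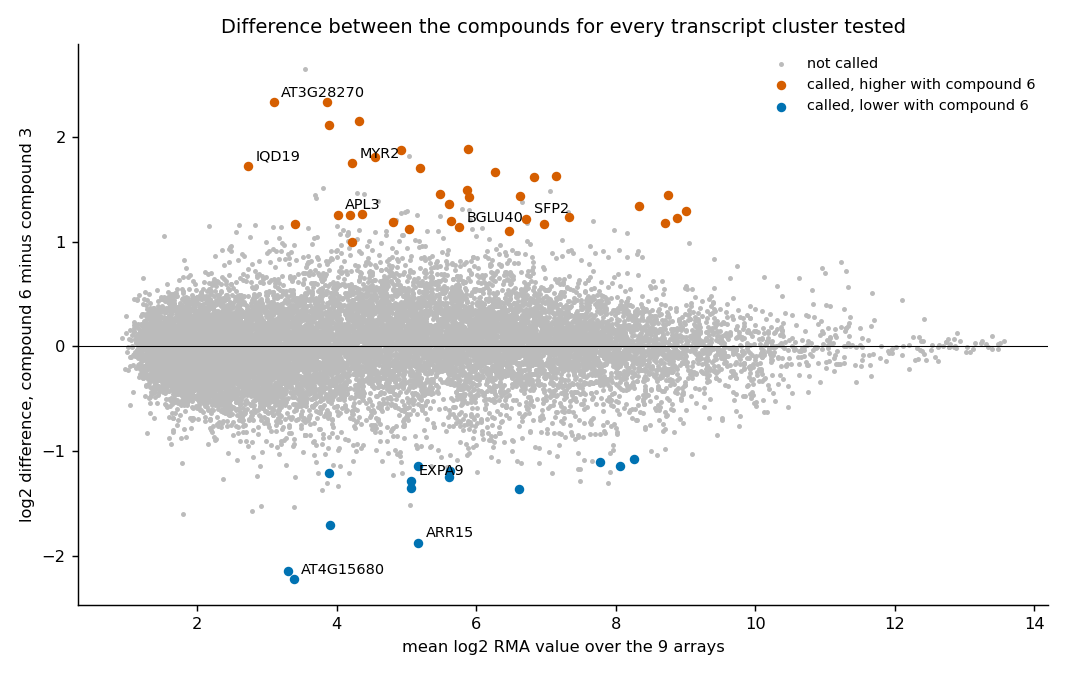
Log2 difference (compound 6 minus compound 3, vertical axis) against the mean log2 RMA value over the 9 arrays (horizontal axis) for each of the 16722 transcript clusters tested; coloured points passed an adjusted p under 0.05. The 36 orange points above and the 14 blue points below lie at mean values between 2.73 and 9.01, and the brightest transcript clusters lie close to 0.

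ARR15 (AT1G74890), a type-A response regulator that cytokinin induces and that represses cytokinin signalling, was lower with compound 6 than with compound 3. It measured 6.13, 5.35 and 5.25 on the compound 6 arrays, 7.26, 7.74 and 7.35 on the compound 3 arrays and 2.64, 2.71 and 2.13 on the control arrays. The 3 groups did not overlap, with compound 3 the highest and control the lowest. The difference between the compounds was -1.88 (SE 0.26, 95% interval -2.43 to -1.32; limma, adjusted p = 0.0065), or 3.67-fold. The call was kept without any 1 of the 6 compound arrays. RR16 (AT2G40670), the other type-A regulator measured, stood at 8.26, 8.78 and 8.45 with compound 6 and at 9.33, 8.99 and 9.12 with compound 3, against 5.98 to 7.16 in control leaves. Its compound arrays did not overlap either, but the difference of -0.65 (95% interval -1.23 to -0.07) did not pass (adjusted p = 0.41).

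None of the 4 type-B response regulators measured differed between the compounds by limma at the adjusted threshold, and none had an unadjusted p under 0.05. The greatest difference among them was that of RR18 (AT5G58080), -0.41 with a wide interval of -1.42 to 0.59, since its arrays spread from 4.41 to 6.14 with compound 6 and from 4.49 to 6.56 with compound 3. RR19, RR21 and RR23 were dim in every group, with group means of 1.84 to 2.57, so their small differences say little. Of 3 measured genes for cytokinin conjugation none passed. UGT76C2 (AT5G05860), which attaches glucose to the ring of cytokinins, stood at 3.76 to 4.35 with compound 6 and at 4.27 to 4.43 with compound 3, and in control leaves at 2.32 to 2.72. The interval of its difference was -0.75 to 0.14, so a 2-fold difference lies outside it. That does not hold for the other conjugation genes. The difference was -0.60 (interval -1.24 to 0.04) for UGT73C1 and 0.37 (interval -0.31 to 1.04) for UGT76C1. Both intervals reach past a 2-fold difference.

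EXPA9 (AT5G02260), an expansin that loosens cell walls, was also lower with compound 6. Its values were 5.61, 5.40 and 4.83 with compound 6, 6.69, 6.61 and 6.40 with compound 3, and 3.19, 3.32 and 3.60 in control leaves. The order of the groups was the same as for ARR15, again without overlap. The difference was -1.28 (SE 0.23, 95% interval -1.77 to -0.79; limma, adjusted p = 0.027). This call ended without compound 6 replicate 2 or 3 and without any 1 of the 3 compound 3 arrays (differences of -1.06 to -1.37, adjusted p = 0.075 to 0.12), and with the replicate number as a block (adjusted p = 0.070). EXPA9 was the 1 called gene among 53 expansins and other wall loosening genes, beside 0.299% of all transcript clusters tested. The median difference of these genes was -0.12, against -0.01 over all transcript clusters tested. Many of these genes were dim in every group, such as GH9B9, XTH20 and EXP26 with group means of 0.90 to 1.42. The count and the median therefore say little on the brighter members. A pair of relatives of EXPA9, named after their values were seen, lay on the other side of 0. EXPA8 (AT2G40610) measured 7.47, 7.82 and 6.81 with compound 6 and 5.74, 6.84 and 6.37 with compound 3, a difference of 1.05 that did not pass (adjusted p = 0.16). The endoglucanase GH9C2 (AT1G64390) measured 6.28 to 6.52 and 5.21 to 5.31, a difference of 1.11 just outside the threshold (adjusted p = 0.055). It passed in 3 of 10 other settings and without DMSO control replicate 2 or 3 (adjusted p = 0.028 and 0.029).

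A starch synthesis gene and a sugar transporter-like gene were among those higher with compound 6. APL3 (AT4G39210), a large subunit of ADP-glucose pyrophosphorylase in starch synthesis, stood at 4.59, 4.56 and 4.55 with compound 6 and at 3.60, 2.84 and 3.48 with compound 3. Control leaves lay between them at 4.14 to 4.21. SFP2 (AT5G27360), a sugar transporter-like protein, stood at 7.39, 7.74 and 7.25 with compound 6, at 6.51, 6.05 and 6.16 with compound 3 and at 6.25 to 6.69 in control leaves. Compound 3 and control arrays overlapped for SFP2, and compound 6 arrays lay above both. The differences were 1.26 for APL3 (SE 0.21, adjusted p = 0.023) and 1.22 for SFP2 (SE 0.21, adjusted p = 0.027). Both calls ended without any 1 of the 3 compound 6 arrays and without compound 3 replicate 2 or 3 (adjusted p = 0.056 to 0.13), and with the replicate number as a block (adjusted p = 0.057 and 0.073).

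In the starch and sugar list 2 of 29 measured genes were called, APL3 and SFP2, both higher with compound 6, where 0.215% of all transcript clusters were called in that direction. The median difference of the list was 0.23 against -0.01 over all transcript clusters. SFP1 (AT5G27350), of the same family as SFP2, had a difference of 0.36 (95% interval -0.03 to 0.76), and APL4 (AT2G21590), another large subunit, of 0.39 (-0.07 to 0.85). Neither passed. The sucrose exporter SWEET13 (AT5G50800), named after its values were seen, measured 3.49, 3.94 and 3.82 with compound 6 and 2.41, 2.58 and 2.86 with compound 3, a difference of 1.14 that missed the threshold (adjusted p = 0.070). It passed in 2 of 10 other settings and without DMSO control replicate 3 (adjusted p = 0.029). For the more abundant SWEET11 (AT3G48740) the difference was 0.39 (95% interval -0.03 to 0.82).

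AT5G53730, for which the gene table gives the synonym NHL26, a member of the NDR1/HIN1-like family known from the phloem, was higher with compound 6 than with compound 3. It measured 4.06, 4.19 and 4.35 with compound 6, 3.17, 3.09 and 2.54 with compound 3 and 5.66, 6.05 and 6.20 in control leaves. Control leaves thus held the highest values, with compound 6 between the other groups. The difference of 1.27 (SE 0.22, adjusted p = 0.027) lost its call without any single compound array (1.07 to 1.39, adjusted p = 0.056 to 0.12), with the replicate block (adjusted p = 0.072) and with centring over all transcript clusters (adjusted p = 0.051). AT1G68570, with the synonym NPF3.1, a transporter of the nitrate and peptide transporter family, measured 7.56, 8.02 and 7.50 with compound 6, 6.13, 6.11 and 5.98 with compound 3 and 6.40 to 7.16 in control leaves. Its difference of 1.62 (SE 0.23, adjusted p = 0.0073) was kept without any 1 compound array, but a second, dimmer transcript cluster of the same gene gave 0.46 and did not pass (adjusted p = 0.57).

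AT1G68570 was the 1 called gene of 14 measured for nitrogen uptake and assimilation, beside 0.299% of all transcript clusters. The median difference of this list was 0.26. An unadjusted p under 0.05 was reached by 6 of the 14, all higher with compound 6, and by 10.1% of all transcript clusters. NPF6.4 (AT3G21670), a nitrate transporter, measured 6.84, 6.11 and 6.79 with compound 6 and 5.63, 5.44 and 5.27 with compound 3 (difference 1.14, adjusted p = 0.052). GTR1 (AT3G47960) and GTR2 (AT5G62680), which move glucosinolates, had differences of 0.89 and 0.66 (adjusted p = 0.12 and 0.40). NPF6.2 (AT2G26690), at 11.03 to 11.18 with compound 6 and 10.00 to 10.55 with compound 3, had one of 0.75 (adjusted p = 0.14). None of these 4 passed, though NPF6.4 (AT3G21670) did in 4 of 10 other settings and without compound 6 replicate 2 or DMSO control replicate 3 (adjusted p = 0.029 and 0.045).

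IQD19 (AT4G14750), a calmodulin-binding protein of the IQ67-domain family, was higher with compound 6. Its values were 3.67, 4.36 and 3.97 with compound 6, 2.35, 2.30 and 2.16 with compound 3 and 1.91, 1.86 and 1.96 in control leaves. Compound 6 arrays stood far above the rest, while compound 3 arrays lay a little above control. The difference was 1.73 (SE 0.21, 95% interval 1.29 to 2.17; limma, adjusted p = 0.0030), and its call was kept without any 1 compound array. It was the 1 called gene among 24 genes for calmodulins and calcium-binding proteins, beside 0.299% of all transcript clusters. The median difference of these genes was 0.06. The levels in control and compound 3 leaves are dim, so the fold of 3.31 is approximate.

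MYR2 (AT3G04030), a transcription factor related to MYB proteins, was lower with compound 3 than in either other group. It measured 4.70, 5.27 and 4.69 with compound 6, 2.68, 3.48 and 3.26 with compound 3 and 4.31, 4.67 and 4.98 in control leaves. Compound 6 and control arrays overlapped. The difference between the compounds was 1.75 (SE 0.26, 95% interval 1.19 to 2.31; limma, adjusted p = 0.0080), and without compound 6 replicate 2 it no longer passed (1.56, adjusted p = 0.053). Of 39 bZIP, MYB, NAC and related transcription factors measured MYR2 was the 1 called, beside 0.299% of all transcript clusters. Their median difference was 0.06. BGLU40 (AT1G26560), a beta-glucosidase, was also lowest with compound 3, but highest in control leaves by group mean, at 6.01, 6.29 and 5.74 with compound 6, 5.0, 4.89 and 4.74 with compound 3 and 6.27 to 6.48 in control leaves. Its difference of 1.14 (SE 0.20, adjusted p = 0.027) did not pass without any 1 of the compound 3 arrays or without compound 6 replicate 1 or 2 (1.00 to 1.20, adjusted p = 0.072 to 0.13), nor with the replicate block (adjusted p = 0.057) or centring over all transcript clusters (adjusted p = 0.053). BGLU40 was the 1 called of 28 genes for beta-glucosidases, glucosinolates and endoplasmic reticulum bodies, again beside 0.299% of all transcript clusters.

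**Figure D2:**
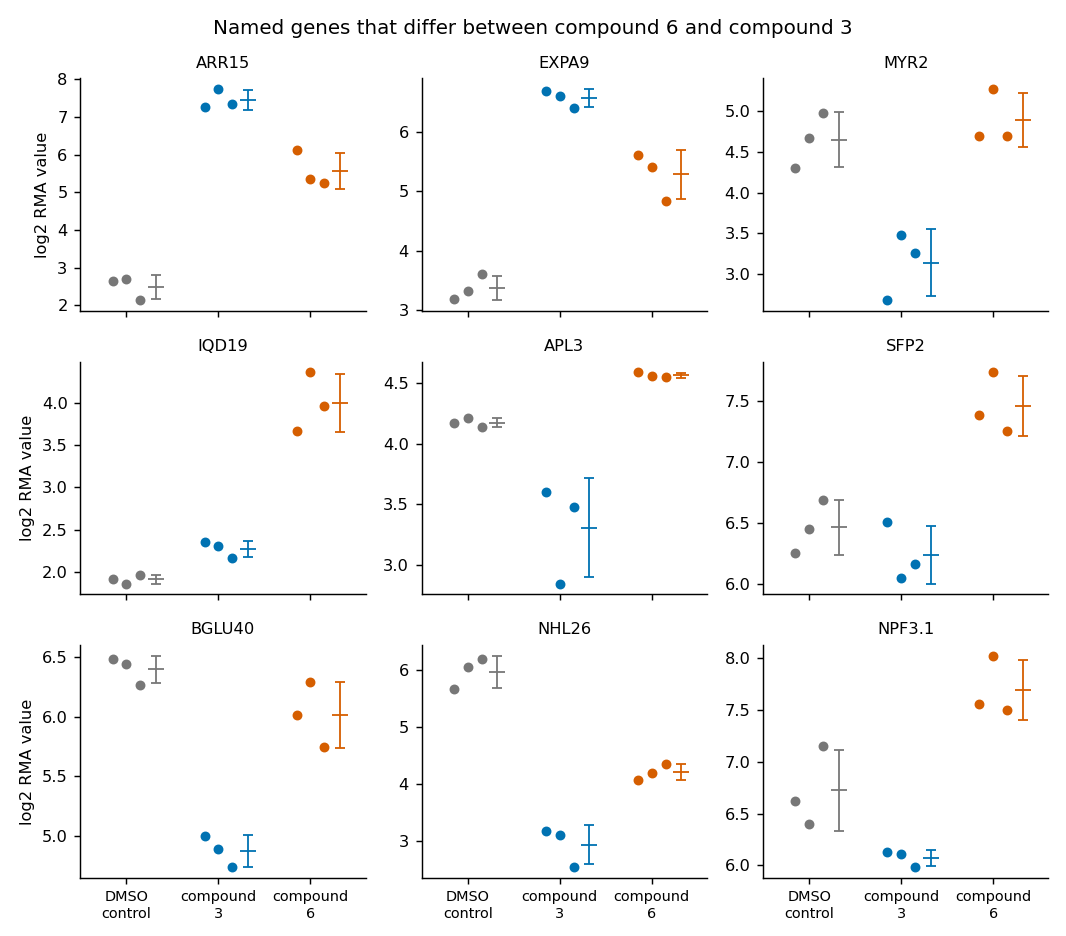
Log2 RMA value (vertical axis, a scale of its own in each panel) of 9 genes on each array, with the mean and SD of 3 arrays beside the points, for DMSO control (grey), compound 3 (blue) and compound 6 (orange). The blue and orange points do not overlap in any panel, and control lies lowest for ARR15, EXPA9 and IQD19 and highest for BGLU40 and NHL26 by group mean.

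Most genes that differed carry no symbol, and the tables used here give no function for them. Of the 14 lower with compound 6, 12 are of this kind. The greatest difference was that of AT4G15680, which measured 2.31, 2.73 and 2.10 with compound 6, 4.67, 4.69 and 4.46 with compound 3 and 3.50, 3.04 and 2.96 in control leaves. Control lay between the compounds without overlap. The difference was -2.23 (SE 0.22, 95% interval -2.70 to -1.75; limma, adjusted p = 0.0015), or about 4.68-fold, since its compound 6 arrays are dim.

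AT4G15670 is the next protein-coding gene beside AT4G15680 in the RefSeq order, and it differed by -1.70 (adjusted p = 0.0080), with 2.91, 3.17 and 3.16 against 4.75, 5.02 and 4.59. Its call ended without compound 6 replicate 1 and without compound 3 replicate 2 (-1.62 and -1.59, adjusted p = 0.053 and 0.056). The other genes of this stretch were read after the values had been seen. AT4G15660 had a difference of -1.53 (adjusted p = 0.055) and AT4G15700 of -1.18 (adjusted p = 0.33). The former passed in 3 of 10 other settings and without compound 3 replicate 2 or DMSO control replicate 3 (adjusted p = 0.035 and 0.048). AT4G15690, between AT4G15680 and AT4G15700, differed by -0.23 (95% interval -0.76 to 0.29). Control levels were not alike along the stretch. They were 3.02 for AT4G15660 and 3.85 for AT4G15670, but 5.33 for AT4G15690 and 9.58 for AT4G15700, above both compounds (3.26 and 3.49 for AT4G15690, 5.81 and 6.99 for AT4G15700, with compound 6 first). Whether probes of these neighbours pick up each other's transcripts was not tested.

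AT5G05965 was highest with compound 3, while its compound 6 and control arrays overlapped. It measured 2.48, 2.82 and 2.40 with compound 6, 4.53, 5.15 and 4.45 with compound 3 and 2.66, 3.08 and 2.22 in control leaves (difference -2.15, SE 0.26, adjusted p = 0.0030). AT5G14160 was ordered as ARR15 was, with 5.05, 5.28 and 4.99 for compound 6, 6.71, 6.34 and 6.31 for compound 3 and 3.62, 3.65 and 3.66 for control (difference -1.35, SE 0.19, adjusted p = 0.0073). Both calls were kept without any 1 compound array. AT3G57460, at means of 6.64 and 8.00 against 5.21 in control leaves, and AT1G07690, at 3.71 and 4.92 against 3.04, had the same order of groups, with differences of -1.36 and -1.21 (adjusted p = 0.019 and 0.027). The means of AT4G25580 were 5.05, 6.30 and 5.50 and those of AT5G22520 were 5.34, 6.53 and 5.03 for compound 6, compound 3 and control, with differences of -1.25 and -1.19 (adjusted p = 0.024 and 0.042). These 4 calls were less firm. Without 1 compound array in turn AT3G57460 kept its call in 2 of 6 fits, AT1G07690 in 1 and the other two in 0, with adjusted p = 0.053 to 0.17 where the calls ended. The AT5G22520 call also ended without DMSO control replicate 1 (adjusted p = 0.064).

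Of the 36 genes higher with compound 6, 31 have no symbol. AT3G28270 had the greatest difference among them, 2.34 (SE 0.30, 95% interval 1.70 to 2.97; limma, adjusted p = 0.0035), or about 5.05-fold, since its compound 3 arrays are dim. It measured 4.23, 4.80 and 4.30 with compound 6, 2.17, 2.22 and 1.92 with compound 3 and 2.12, 2.62 and 3.50 in control leaves. Control arrays overlapped with those of compound 3 and lay below those of compound 6. AT5G21100 was also highest with compound 6, at 6.58, 6.19 and 6.04 with compound 6, 4.53, 4.42 and 4.23 with compound 3 and 4.44, 4.12 and 3.74 in control leaves (difference 1.88, SE 0.23, adjusted p = 0.0030). AT1G60060, at means of 5.65, 3.84 and 4.15 for compound 6, compound 3 and control, differed by 1.81 (adjusted p = 0.0077), and without compound 3 replicate 3 it no longer passed (1.63, adjusted p = 0.054). In these 3 genes the arrays of compound 3 overlapped with those of control leaves.

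The reverse was seen for AT5G45650, where the arrays of compound 6 overlapped with those of control leaves. It measured 4.81, 5.41 and 5.01 with compound 6, 2.69, 2.99 and 3.08 with compound 3 and 4.60, 4.60 and 5.74 in control leaves (difference 2.16, SE 0.29, adjusted p = 0.0053). AT4G33040 had 4.64, 3.76 and 4.71 with compound 6, 1.69, 2.17 and 2.25 with compound 3 and 5.65, 4.96 and 4.92 in control leaves (difference 2.33, SE 0.29, adjusted p = 0.0031). Its control arrays lay above those of compound 6, and those of compound 3 were the lowest.

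AT5G05365 and AT4G14020 were lower with both compounds than in control leaves by group mean, and lower with compound 3 than with compound 6. AT5G05365 measured 3.80, 4.64 and 3.89 with compound 6, 1.80, 1.98 and 2.21 with compound 3 and 5.64, 5.37 and 5.70 in control leaves (difference 2.12, SE 0.24, adjusted p = 0.0030). AT4G14020 measured 5.06, 4.78 and 4.79, then 2.90, 3.24 and 3.38, and 7.30, 7.98 and 7.28 in control leaves (difference 1.70, SE 0.23, adjusted p = 0.0053). The groups did not overlap in either gene. AT1G64360, with means of 6.13, 4.25 and 7.28 for compound 6, compound 3 and control, differed by 1.88 (adjusted p = 0.032), but lost its call without any 1 compound array (1.66 to 2.03, adjusted p = 0.070 to 0.15).

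**Figure D3:**
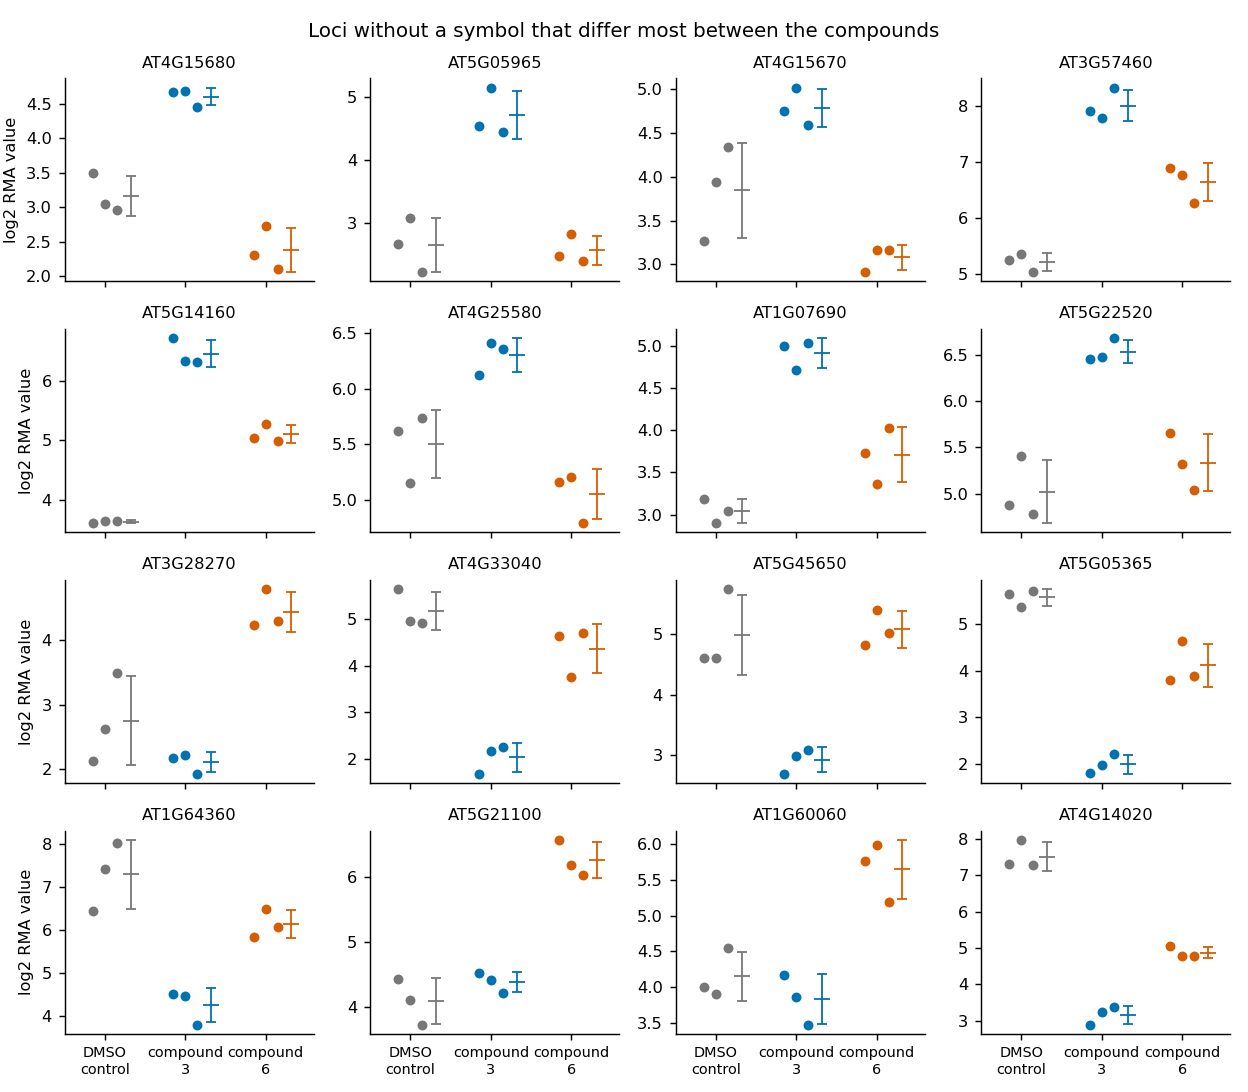
Log2 RMA value (vertical axis, a scale of its own in each panel) of the 16 loci without a symbol that differed most, on each array, with the mean and SD of 3 arrays beside the points, for DMSO control (grey), compound 3 (blue) and compound 6 (orange). The first 8 panels are lower and the last 8 higher with compound 6, and the position of control relative to the compounds differs from panel to panel.

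The remaining 27 called genes, AT5G53730 and AT1G68570 among them, had differences between 1.00 and 1.67 where higher with compound 6 (23 genes) and between -1.15 and -1.07 where lower (4 genes). Among the latter are AT2G20142 and AT2G20150, which follow each other in the RefSeq order. AT2G20142 measured 7.53, 7.29 and 7.54 with compound 6, 8.46, 8.46 and 8.75 with compound 3 and 7.17 to 7.57 in control leaves. AT2G20150 measured 4.90, 4.34 and 4.58, then 5.76, 5.68 and 5.82, and 5.06 to 5.21 in control leaves. Compound 3 arrays were the highest in both. Without 1 compound array in turn AT2G20142 kept its call in 0 of 6 fits and AT2G20150 in 1, that without compound 6 replicate 1 (adjusted p = 0.075 to 0.13 where the calls ended). Over all 50 genes, 15 calls were kept in each of the 6 fits without 1 compound array and 16 in none of them. Every one of the 50 kept its direction in all alternatives in which it was tested. That says little on the calls, since leaving out an array cannot turn the sign where the arrays do not overlap. Several other alternatives leave the difference itself unchanged.

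Genes of photosynthesis did not differ between the compounds at the adjusted threshold in limma, and for many of them the intervals were narrow. All 3 measured Calvin cycle genes, all 8 nuclear genes for the photosystems, electron transport and ATP synthase, all 6 light-harvesting genes and all 9 chlorophyll synthesis genes had 95% intervals within 1 log2 unit of 0, as did 85.7% of all transcript clusters. None of these 26 had an unadjusted p under 0.05, as 10.1% of all transcript clusters had. The light-harvesting gene LHCB4.3 and the chlorophyll synthesis genes HEMA3, hemb2 and hemf2 were dim, with group means of 1.59 to 2.70. Their intervals therefore say little on a difference between the compounds. The sedoheptulose-bisphosphatase gene SBPASE (AT3G55800) measured 8.64, 8.64 and 8.75 with compound 6, 8.32, 8.29 and 8.33 with compound 3 and 5.29 to 5.83 in control leaves. Its interval was -0.05 to 0.78. That of the phosphoribulokinase gene PRK (AT1G32060) was -0.52 to 0.24 and that of the Rubisco activase gene RCA (AT2G39730) -0.22 to 0.62. The median differences of the 4 lists were 0.20, 0.13, 0.11 and -0.09, and the missed threshold does not show that the compounds act alike on them.

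Among 9 genes for the chloroplast NADH dehydrogenase-like complex and other thylakoid factors none passed, and the median difference was 0.23. CRR42 (AT5G20935), needed for that complex, stood at 6.27 ± 0.14 with compound 6 and 5.50 ± 0.15 with compound 3 (SD, n = 3), a difference of 0.77 (limma, adjusted p = 0.12). NOL (AT5G04900), a chlorophyll b reductase, stood at 6.87 ± 0.11 and 6.42 ± 0.074 (SD, n = 3; difference 0.45, limma, adjusted p = 0.38). In the autophagy list 0 of 11 genes were called, with a median difference of -0.13. An unadjusted p under 0.05 was reached by 1 of them and by 10.1% of all transcript clusters. ATG8G (AT3G60640), whose product coats autophagosomes, had a difference of 0.56 and ATG8E (AT2G45170) of -0.51. Of 6 dark and carbon starvation genes 0 were called by limma and 0 had an unadjusted p under 0.05, and all 6 intervals lay within 1 log2 unit.

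Among the senescence regulators and markers 0 of 5 genes were called. All 5 had lower means with compound 6, with a median difference of -0.40 against -0.01 over all transcript clusters. SAG101 (AT5G14930), a lipase-like protein of immunity and senescence, measured 5.07, 5.28 and 5.14 with compound 6, 6.00, 5.88 and 5.85 on the compound 3 arrays and 5.42 to 5.52 in control leaves. Control lay between the compounds, and the difference was -0.74 (95% interval -1.13 to -0.36, adjusted p = 0.10). WRKY6 (AT1G62300), a senescence-associated transcription factor, had one of -0.50 (adjusted p = 0.34). An unadjusted p under 0.05 was reached by 2 of the 5 genes and by 10.1% of all transcript clusters.

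In the list for reactive oxygen and heat 0 of 21 genes were called by limma, where 0.299% of all transcript clusters were. An unadjusted p under 0.05 was reached by 8, against 10.1% of all transcript clusters, and 7 of the 21 had higher means with compound 6. The highest of these was the peroxidase PRXR1 (AT4G21960), with a difference of 0.70 (adjusted p = 0.17). The peroxidase PRXCA (AT3G49110) measured 3.30, 3.70 and 3.32 with compound 6, 4.83, 4.54 and 5.06 with compound 3 and 2.40 to 3.90 in control leaves, a difference of -1.37 (adjusted p = 0.079). The methionine sulfoxide reductases MSRB9 (AT4G21850) and MSRB8 (AT4G21840) had differences of -1.08 and -1.06 (adjusted p = 0.076 and 0.14), and the zinc finger repressor STZ (AT1G27730) of -1.04 (adjusted p = 0.15). PRXCA passed in 2 of 10 other settings and without DMSO control replicate 1 or 3 (adjusted p = 0.043 and 0.023). MSRB9 passed with array weights and without DMSO control replicate 3 (adjusted p = 0.033 and 0.048). The median difference of the list was -0.12.

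Differences in the opposite direction that also missed the threshold were those of the serine carboxypeptidase-like scpl16 (AT3G12220), 1.18 (adjusted p = 0.055), and scpl35 (AT5G08260), 1.02 (adjusted p = 0.071). The cytochrome P450 gene CYP71B26 (AT3G26290) had one of 1.42 (adjusted p = 0.060), the gibberellin receptor gene GID1A (AT3G05120) of 0.97 (adjusted p = 0.079) and the jasmonate transcription factor gene MYC4 (AT4G17880) of 0.97 (adjusted p = 0.12). CYP71B26 passed without compound 3 replicate 1 (1.75, adjusted p = 0.031). The scpl16 difference passed in 5 of 10 other settings and without DMSO control replicate 1 or 3 (adjusted p = 0.048 and 0.049), and that of scpl35 with array weights and without DMSO control replicate 3 (adjusted p = 0.025 and 0.042). Of 81 genes for glutathione transferases, glycosyltransferases, cytochromes P450 and other detoxification 0 were called by limma, 15 had an unadjusted p under 0.05 and the median difference was -0.08. For 19 auxin response and conjugation genes these values were 0, 1 and -0.05, and for 11 abscisic acid genes 0, 1 and 0.11. Over all transcript clusters 0.299% were called and 10.1% had an unadjusted p under 0.05. Across all lists 549 genes were measured, of which 9 were called and 421 had intervals within 1 log2 unit of 0. The 9 are ARR15, EXPA9, APL3, SFP2, NHL26, NPF3.1, IQD19, MYR2 and BGLU40. Since the lists were written with earlier results of these data known, nothing is read from that share.

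**Figure D4:**
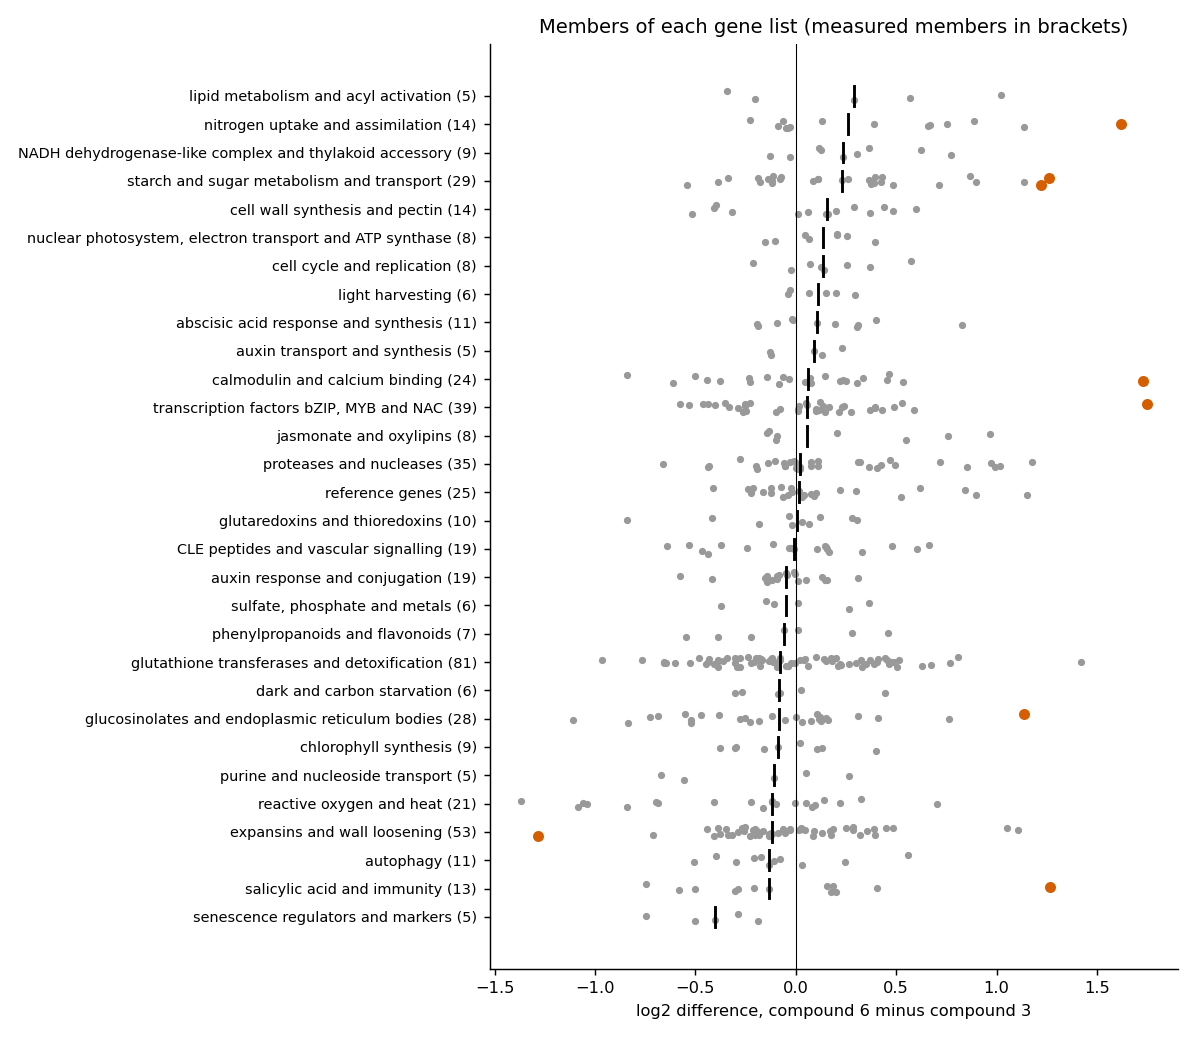
Log2 difference (compound 6 minus compound 3, horizontal axis) of each measured gene in the 30 lists with at least 5 measured members, with the list's median as a black bar; large orange points passed an adjusted p under 0.05. The medians lie between -0.40 and 0.29, and the called genes lie toward one end of their lists, with uncalled genes close by in some.

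The genes that both compounds moved furthest from control were examined for a difference between the compounds. The 10 genes with a symbol furthest above control and the 10 furthest below, by the mean of both compounds, were taken by a rule set after the values had been seen. Of the 10 above control, 2 were called between the compounds, ARR15 and EXPA9, beside 0.299% of all transcript clusters. The intervals of 5 of these 10 contained 0. NAI2 (AT3G15950), needed to form endoplasmic reticulum bodies and the furthest above control, measured 8.92, 8.88 and 9.43 with compound 6, 9.66, 9.91 and 9.84 with compound 3 and 3.51 to 4.02 in control leaves. Its compound arrays did not overlap, but the difference of -0.73 (95% interval -1.19 to -0.26) did not pass (adjusted p = 0.20). For NdhL (AT1G70760), of the NADH dehydrogenase-like complex, the difference was -0.13 (95% interval -0.70 to 0.44), and for the thylakoid calcium sensor CaS (AT5G23060) it was 0.36 (-0.06 to 0.79).

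Of the 10 genes furthest below control 0 were called between the compounds in limma, beside 0.299% of all transcript clusters. The intervals of 5 did not contain 0, that is, their unadjusted p was under 0.05, as for 10.1% of all transcript clusters. In 9 of the 10 the mean was higher with compound 6, that is, nearer to control. The median difference over all transcript clusters was -0.01, and the 10 were chosen after the values had been seen. AAE16 (AT3G23790), an acyl-activating enzyme, stood at 6.83 ± 0.12 with compound 6, 5.81 ± 0.24 with compound 3 and 9.04 ± 0.21 in control leaves (SD, n = 3), a difference of 1.02 (95% interval 0.59 to 1.45; limma, adjusted p = 0.052). It passed in 3 of 10 other settings and without DMSO control replicate 3 (adjusted p = 0.044). For the dehydrin COR47 (AT1G20440) the difference was 0.83 (adjusted p = 0.093), for the green leaf volatile enzyme gene CHAT (AT3G03480) 0.76 (adjusted p = 0.20), and for SKP2A (AT1G21410), an F-box protein, 0.79 (adjusted p = 0.26). WES1 (AT4G27260), which joins amino acids to auxin, was the exception, with a difference of -0.0075 and an interval of -0.44 to 0.43. For GH3.17 (AT1G28130), an enzyme of the same family, the interval was -0.32 to 0.94.

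**Figure D5:**
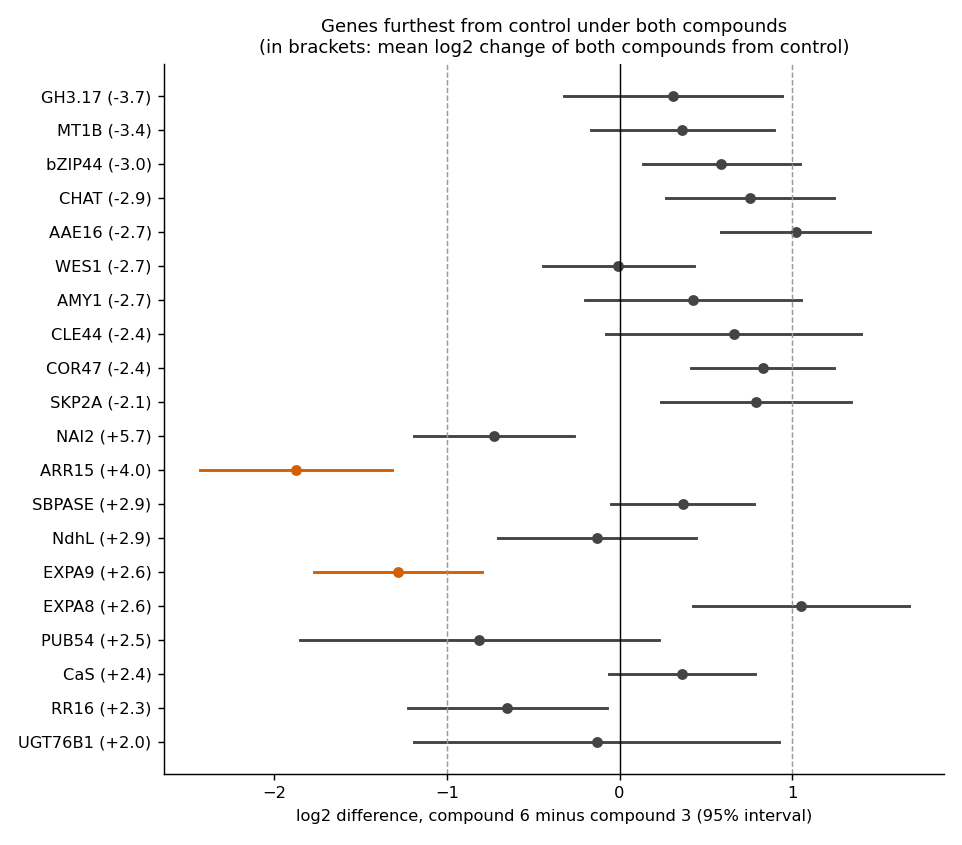
Log2 difference (compound 6 minus compound 3) with its 95% interval (horizontal axis) for the 20 genes with a symbol furthest from DMSO control under both compounds, with the mean change from control in brackets; orange marks an adjusted p under 0.05 and dashed lines mark 1 log2 unit. Among the genes above control, the intervals of ARR15, EXPA9, NAI2 and RR16 lie below 0 and that of EXPA8 lies above 0. In the upper part, 9 of the 10 genes, which were lower than in control leaves, have a difference above 0.

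The precision of a single gene follows from the 3 arrays per group. The median transcript cluster had a 95% interval reaching 0.49 log2 units to each side of its difference, and the middle 80% of them reached 0.41 to 0.64. Differences of at least 2-fold were seen for 177 transcript clusters, 99 higher and 78 lower with compound 6, and 128 of these did not pass. For 21 transcript clusters the whole interval lay beyond 2-fold, 17 of them higher with compound 6. An unadjusted p under 0.05 was reached by 1692.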

How the data were processed

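Expression was measured on 1 Affymetrix array per sample. The deposited log2 values are, per the submitters' processing notes, RMA output made with the R package oligo, and limma is named there too, without versions. The log base is not stated and was taken as 2 from the range of 0.132 to 13.9. No build is given in the sources used here, so coordinates are left out. The array has 38408 transcript clusters, 20927 of them unnamed here and 759 paired with several genes. Names came from the platform annotation updated through the RefSeq table of TAIR10.1.

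Differences are compound 6 minus compound 3 in 1 limma 3.58.1 model (R 4.3.3) of 3 groups over all 9 arrays, with moderated SEs, 95% intervals and Benjamini-Hochberg adjustment over 16722 transcript clusters, two-sided. The compounds form 1 pair. An exact permutation test of 3 arrays against 3 cannot go below p = 0.1 and was not used. The fit was tested on simulated data. Errors beside means are SDs.

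Members and the 53 gene lists were chosen with earlier results of these data known. Lists were matched by symbol and synonym, and 47 had a measured member. Wrong matches were dropped by name after matching. Named genes are the called genes with a symbol and the 8 highest and 8 lowest without one, with all arrays of the compounds apart, and from each list up to 4 called members or up to 2 members given as values if the list had no call. Other genes named were picked after their values were seen and went through the same alternatives. Where a gene has several transcript clusters, the brightest stands for it. Alternatives changed the scaling, the filter on dim clusters, the features tested, the arrays fitted, the moderation, array weights and the replicate block. Plots were made in Python 3.11.15 (matplotlib 3.10.9).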

Additional observations from a re-analysis of the deposited data

Results flagged for a closer look

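Signals appeared among the transcript clusters that no gene table names here. With all transcript clusters tested, 2 unnamed ones were called between the compounds. Transcript cluster 13484158 measured 7.26, 7.85 and 7.10 with compound 6, 4.53, 4.52 and 3.82 with compound 3 and 7.05 to 7.99 in control leaves, a difference of 3.11 (limma, adjusted p = 0.045). Transcript cluster 13337858 measured 6.14, 5.79 and 6.38 with compound 6, 4.24, 4.25 and 3.91 with compound 3 and 8.62 to 8.70 in control leaves, a difference of 1.97 (limma, adjusted p = 0.045). The run of 7083 unnamed transcript clusters had a median of 3.40 on compound 6 replicate 2, above the 2.30 to 2.44 of the control arrays and the values of the other compound arrays, and 0 of its clusters were called between the compounds in limma.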

How the results depend on the processing

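The direction of each of the 50 differences was kept in all alternatives, with 49 of them tested once transcript clusters with a mean under 3 were left out. In fits without 1 array this was fixed in advance, since the arrays of the compounds do not overlap in these genes. It was also fixed with that filter, other features tested, another moderation, the replicate block or control arrays left out, since these leave each difference unchanged. The share of tested transcript clusters called, 0.299% here (36 higher and 14 lower with compound 6), was less stable. It was 0.927% (61 and 33) with that filter, 0.807% (80 and 55) with array weights, 0.173% (21 and 8) with a replicate block and 0.00781% (2 and 1) with all transcript clusters tested. With the moderation taken over all transcript clusters and adjustment over those of 1 gene, chosen after seeing the data, limma called 0%, that is 0 genes, with 1372 unadjusted p under 0.05. The moderation then rested on 3.29 prior degrees of freedom against 7.89. Of the 50, 25 were kept with the replicate block, 1 with all transcript clusters tested and 41 to 50 in the other planned settings with all arrays of both compounds and 9 or 6 arrays fitted. The number lower with compound 6 was 27 with only the 6 compound arrays and 23 with a trended, robust moderation. Without 1 array in turn the share called ran from 0.12% to 0.67%, the number higher from 13 to 71 and the number lower from 6 to 41. List members called were 9, and 0 with all transcript clusters tested or setting the moderation, 5 with the replicate block, 14 with the trended moderation, 20 with array weights and 4 to 18 without 1 array. Intervals within 1 log2 unit numbered 14336, and 8336 with the filter and 24778 with all transcript clusters, since fewer or more were tested, and 12836 to 14585 without 1 array. Same-numbered arrays of the compounds deviated from their group means with correlations of -0.16, -0.13 and -0.18, and 0 of 3 compound 6 arrays correlated best with its own number. With control arrays included, same-numbered pairs ran from -0.37 to 0.26. Deviations from means of 3 arrays cannot decide whether the numbers pair the samples. Of 97 named genes that were not called, 13 passed in at least 1 alternative, SAG101, COR47 and the tubulin gene TUB1 only with array weights.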
